A study of Mus musculus with 8 samples.

Results

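The genes described here are 7 genes of cytosolic nucleic acid sensing, taken by name from the 32249 genes listed in 8 single-cell RNA libraries of mouse bone marrow cultures. They are the sensors Ddx58, Ifih1, Dhx58, Zbp1 and Eif2ak2, the adaptor Mavs and the kinase Tbk1. The cultures came from C57Bl/6J mice labelled male and aged 10 weeks, and all of them received the growth factor M-CSF for 3 days. For a further 24 h, 4 libraries received no added protein (control) and 4 received 4 µg/mL of CYR61, a secreted matricellular protein encoded by Ccn1. No group carried a transgene or deletion by its labels, and libraries were made on the HIVE microwell platform. Nothing in the labels ties replicates to separate animals or cultures, so p-values measure the spread between libraries, which may be technical.

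As background, viral RNA in the cytosol is bound by RIG-I (encoded by Ddx58) and MDA5 (Ifih1), helicases that carry caspase recruitment domains. LGP2 (Dhx58) is their relative without those domains and modulates both. RIG-I and MDA5 signal through MAVS, a protein of the outer mitochondrial membrane, to the kinase TBK1, which phosphorylates IRF3 and so leads to type I interferon production. ZBP1 binds left-handed nucleic acid and can engage the kinase RIPK3. PKR (Eif2ak2) binds double-stranded RNA and phosphorylates eIF2 alpha, which lowers translation. Genes of several sensors are themselves interferon-inducible through the interferon-stimulated response element, a DNA motif bound by ISGF3 and IRF proteins.

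Promoter windows are shown first, and whether their letters bear on the changes with CYR61 was not tested. RefSeq windows on GRCm38.p6, from 250 bases before to 50 bases after the annotated start, matched 5 of the 7 genes. Dhx58 and Zbp1 were not matched. The windows were searched on both strands for GAAA, any 2 bases (NN) and GAAA, the core letters of the interferon-stimulated response element. Capitals mark the response-element letters on either strand, and each line reads 5′ to 3′ along the transcribed strand.
Ddx58: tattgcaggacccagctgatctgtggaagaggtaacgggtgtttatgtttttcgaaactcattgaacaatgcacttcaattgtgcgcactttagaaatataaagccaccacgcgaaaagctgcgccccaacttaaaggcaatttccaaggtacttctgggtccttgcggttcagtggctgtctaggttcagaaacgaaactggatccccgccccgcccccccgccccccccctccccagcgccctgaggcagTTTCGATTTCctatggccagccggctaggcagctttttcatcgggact
Ifih1: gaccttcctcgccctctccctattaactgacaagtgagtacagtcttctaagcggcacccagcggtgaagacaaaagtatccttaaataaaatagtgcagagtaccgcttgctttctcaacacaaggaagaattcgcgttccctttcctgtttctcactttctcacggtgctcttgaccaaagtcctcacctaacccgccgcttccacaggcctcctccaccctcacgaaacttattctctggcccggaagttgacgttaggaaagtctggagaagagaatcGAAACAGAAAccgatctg
Eif2ak2: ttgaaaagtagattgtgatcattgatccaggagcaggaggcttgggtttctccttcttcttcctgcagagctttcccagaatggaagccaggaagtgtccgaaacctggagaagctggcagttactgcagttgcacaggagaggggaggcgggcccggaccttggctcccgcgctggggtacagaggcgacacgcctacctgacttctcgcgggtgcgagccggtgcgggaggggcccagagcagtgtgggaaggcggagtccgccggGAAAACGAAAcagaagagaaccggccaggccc
Mavs: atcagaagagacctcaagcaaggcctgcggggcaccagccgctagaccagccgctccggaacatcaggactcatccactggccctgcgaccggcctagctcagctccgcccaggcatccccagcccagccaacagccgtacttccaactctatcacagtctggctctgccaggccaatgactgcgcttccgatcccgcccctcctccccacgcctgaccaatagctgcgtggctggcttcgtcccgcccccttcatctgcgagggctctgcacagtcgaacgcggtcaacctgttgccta
Tbk1: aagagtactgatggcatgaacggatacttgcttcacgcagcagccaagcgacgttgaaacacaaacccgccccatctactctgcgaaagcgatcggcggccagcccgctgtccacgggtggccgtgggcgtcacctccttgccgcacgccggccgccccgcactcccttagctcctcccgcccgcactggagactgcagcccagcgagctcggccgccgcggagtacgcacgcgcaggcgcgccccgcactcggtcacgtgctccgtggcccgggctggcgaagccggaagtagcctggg

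The windows lie at chr4:40239776-40240075 (minus strand) for Ddx58, chr2:62646206-62646505 (minus) for Ifih1 and chr17:78882523-78882822 (minus) for Eif2ak2. Those of Mavs and Tbk1 lie at chr2:131233813-131234112 (plus) and chr10:121586745-121587044 (minus). The response-element letters occurred in 3 windows, those of Ddx58, Ifih1 and Eif2ak2, and in neither the Mavs nor the Tbk1 window. Of all 32851 RefSeq windows of the same length, 3.44% held this motif. In Ddx58 the match was TTTCGATTTC, read on the opposite strand, with its first base 2 bases after the annotated start. In Ifih1 it was GAAACAGAAA, 32 bases after the start, and in Eif2ak2 GAAAACGAAA, 18 bases after the start. All 3 matches thus lay just inside the transcribed part of the window. A separate motif, TTC, any 3 bases (NNN) and GAA, was also searched for and is not marked in capitals. It occurred in the Eif2ak2 window alone, as TTCCCAGAA with its first base at -178, against 8.3% of all windows. A match describes letters and not binding, and a window without the letters says nothing about the factor.

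Replicates 1 and 2 of each group carry an earlier date stamp and replicates 3 and 4 a later one. Barcodes recurred between libraries that share a stamp, and each cell was therefore counted once, in whichever library of that date held most of its UMIs (unique molecular identifiers). These home-library cells numbered 9196 of 12848 kept cells, with 294 to 1058 in control and 499 to 3604 in CYR61 libraries. Their summed UMIs ranged from 842528 to 3436577 in control and from 1149043 to 13933610 in CYR61 libraries. Of the UMIs of kept cells, 0.448% to 75.5% in control libraries belonged to barcodes that had most UMIs in a CYR61 library, with the highest share in control replicate 2. In CYR61 libraries, 0.56% to 21.8% belonged to barcodes with most UMIs in a control library, with the highest share in CYR61 replicate 3. Xist reached 1152 CPM or more in control replicates 2 and 3 and CYR61 replicates 1 and 2, against the label male, and was at most 1.16 CPM in the others. Unless stated, values below are of home-library cells, in CPM (UMIs per 1000000 UMIs of the library). In counts summed over cells, fewer cells of a type and less RNA per cell cannot be told apart.

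All 5 sensors rose with CYR61, each with its 4 CYR61 libraries above its 4 control libraries. Mavs and Tbk1 did not pass the test. Across all genes, edgeR's quasi-likelihood test called 121 of 10422 (1.16%) at a Benjamini-Hochberg adjusted p under 0.05. Of these, 117 were higher (1.12% of all tested) and 4 lower (0.0384%), beside 5 of the 7 genes described here. The 7 genes were chosen with earlier results of these data known, so their share cannot test whether such genes rose more often than others. Groups without overlap occurred for 5.12% of all tested genes in either direction and for 2.87% with CYR61 higher. The median log2 fold change was 1.65 for the 5 sensors and -0.02 for all tested genes. All 7 genes passed the filter on low counts.

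**Figure D1:**
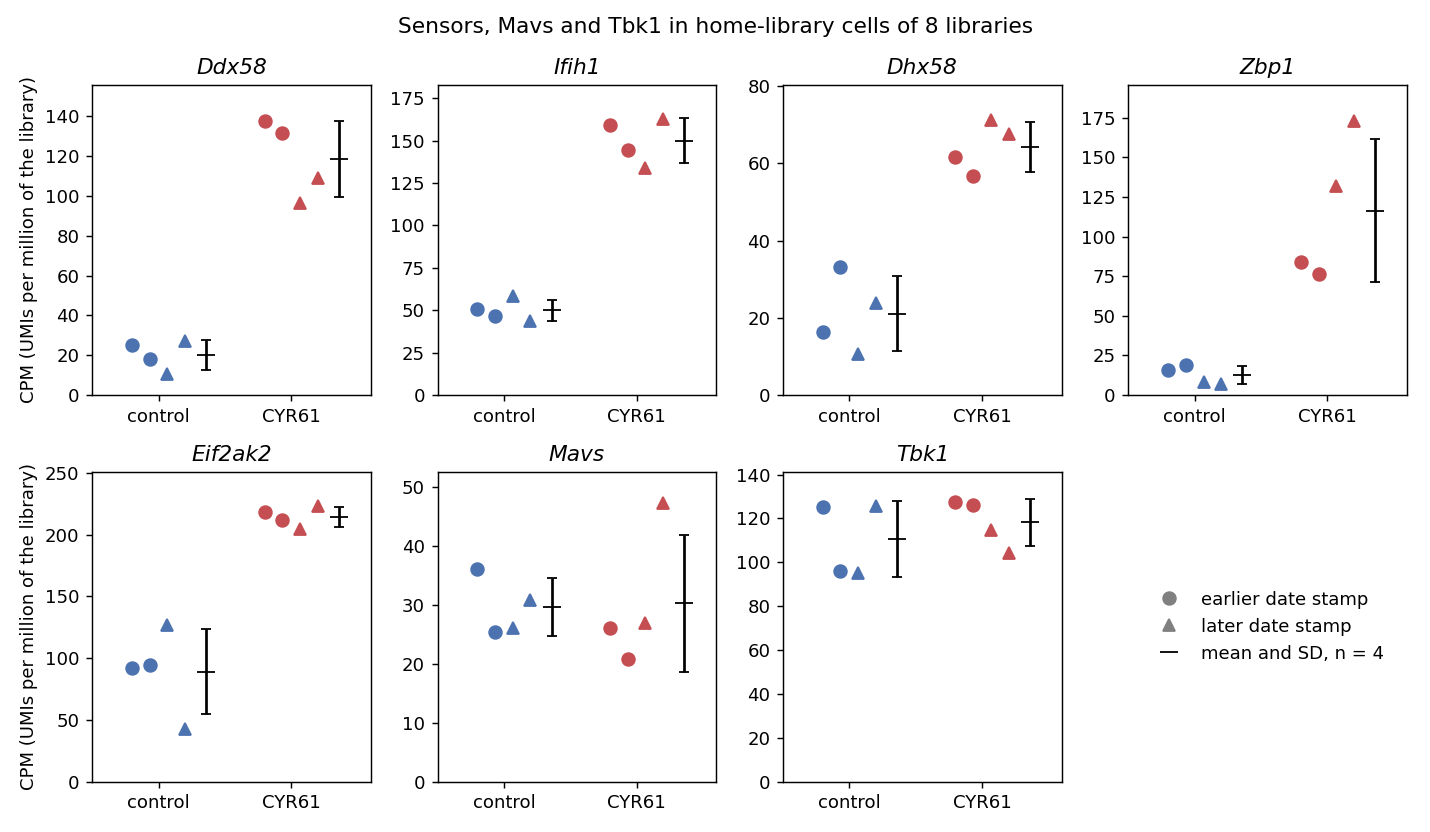
CPM of each gene in home-library cells (y axis, from 0) by group (x axis). Points are single libraries, circles of the earlier and triangles of the later date stamp, and bars are the mean and SD (n = 4). The 4 CYR61 libraries lie above the 4 control libraries for Ddx58, Ifih1, Dhx58, Zbp1 and Eif2ak2, while Mavs and Tbk1 overlap.

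Among the RNA helicases, Ddx58 moved most. Ddx58 (chr4:40203773-40239828, minus strand, GENCODE vM21 on mm10) was at 25.02, 17.8, 10.7 and 26.9 CPM in control replicates 1 to 4 and at 138, 132, 96.6 and 109 CPM in CYR61 replicates 1 to 4. The lowest CYR61 library was 3.59 times the highest control library. The group means were 20.1 ± 7.41 and 119 ± 19.2 CPM (SD, n = 4), a log2 fold change of 2.56 (SE 0.27, edgeR adjusted p = 0.000302). Ddx58 rests on 143 UMIs in all control libraries together, 9 of them in control replicate 3. Ddx58 ranked 18 of all tested genes by p. Its window above holds the response-element letters.

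Ifih1, the sensor of long double-stranded RNA (chr2:62595798-62646255, minus), was at 50.6, 46.7, 58.2 and 43.9 CPM in control and at 159, 144, 134 and 163 CPM in CYR61 replicates 1 to 4. Both groups were tight, with an SD of 6.20 and 13.3 CPM around means of 49.8 and 150.0 CPM (n = 4). This was a log2 fold change of 1.62 (SE 0.18, edgeR adjusted p = 0.000349). At the later date alone, with 2 libraries a group, Ifih1 missed the threshold (edgeR adjusted p = 0.0792, log2 fold change 1.52).

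Dhx58, which encodes the relative without recruitment domains (chr11:100694884-100704271, minus), was at 16.3, 33.1, 10.7 and 23.9 CPM in control and at 61.5, 56.8, 71.4 and 67.6 CPM in CYR61 replicates 1 to 4. Control replicate 2 was the highest control, and the lowest CYR61 library was 1.71 times as high. The groups differed by 1.65 on the log2 scale (SE 0.29, edgeR adjusted p = 0.0132, n = 4). It rests on 128 UMIs in all control libraries together, 9 of them in control replicate 3. Without control replicate 1 the edgeR adjusted p was 0.0768, and without CYR61 replicate 4 it was 0.0558, with log2 fold changes of 1.51 and 1.62. It was 0.0869 and 0.140 at the earlier and the later date alone, and over all alternatives it ranged from 7.1e-06 to 0.9999. An antisense gene, Dhx58os, overlaps Dhx58 in the annotation, and whether counting used strand is not given, so their reads cannot be told apart.

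Zbp1, the sensor of left-handed nucleic acid (chr2:173206612-173218923, minus), showed the largest log2 fold change of the 7 genes. It was at 15.4, 18.7, 8.31 and 6.98 CPM in control and at 84.0, 76.3, 132 and 173 CPM in CYR61 replicates 1 to 4. The lowest CYR61 library was 4.08 times the highest control. The means were 12.3 ± 5.62 and 116 ± 45.1 CPM (SD, n = 4), a log2 fold change of 3.21 (SE 0.35, edgeR adjusted p = 0.000349). Control replicates 3 and 4 rest on 7 UMIs each, and CYR61 libraries on 152 to 1063.

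Zbp1 also varied within the CYR61 group. Both CYR61 libraries of the later date lay above both of the earlier date, while both controls of the later date lay below those of the earlier date. With each date fitted alone, Zbp1 had a log2 fold change of 2.38 (SE 0.20) at the earlier and 4.29 (SE 0.44) at the later date. In these fits of 2 libraries against 2, edgeR called 4 of the 7 genes at the earlier date, against 0.693% of all tested genes, and Ddx58 and Zbp1 at the later date, against 0.92%. The difference, 1.96 (SE 0.45, 95% interval 0.96 to 2.95), did not pass edgeR's interaction test over all genes (unadjusted p = 0.00123, adjusted p = 0.360). DESeq2 gave an adjusted p of 0.109 for it. Over all 10422 genes edgeR found 0 such differences (0.0%), although 1055 had an unadjusted p under 0.05, and DESeq2 found 41. Within the CYR61 group, the libraries with Xist were those of the earlier date, so date and that split cannot be told apart there.

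Ddx58 went the other way among CYR61 libraries, with 138 and 132 CPM at the earlier and 96.6 and 109 CPM at the later date. Per UMI of Ddx58, Zbp1 gave 0.611 and 0.580 UMIs in CYR61 replicates 1 and 2 and 1.37 and 1.59 UMIs in replicates 3 and 4. The control ratios of these 2 genes ranged from 0.259 to 1.048. For the other members, the difference between dates ranged from -0.32 for Tbk1 to 0.71 for Mavs on the log2 scale, and none passed (edgeR interaction, adjusted p from 0.664 to 0.988).

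Eif2ak2, which encodes PKR (chr17:78852564-78882573, minus), was at 92.2, 94.2, 127 and 42.9 CPM in control and at 218, 212, 205 and 223 CPM in CYR61 replicates 1 to 4. The CYR61 libraries lay close together (SD 8.06 CPM), and the controls were spread (SD 34.7 CPM), with replicate 4 lowest. The estimated log2 fold change was 1.304 (SE 0.25, edgeR adjusted p = 0.0238, n = 4), the smallest of the 5 sensors. The adjusted p rose to 0.113, 0.0976, 0.0510 and 0.0949 without control replicate 1, control replicate 2, CYR61 replicate 1 and CYR61 replicate 4, with log2 fold changes between 1.28 and 1.32. Over all alternatives it ranged from 9.1e-07 to 0.9999, and it also missed the threshold at the later date alone (0.374). The genes n-R5s29 and Gm26637 overlap Eif2ak2 on the other strand.

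Neither the adaptor nor the kinase passed. Mavs (chr2:131234063-131248025, plus) was at 36.1, 25.5, 26.1 and 30.9 CPM in control and at 26.0, 20.9, 27.0 and 47.3 CPM in CYR61 replicates 1 to 4, with overlapping groups. Its log2 fold change was 0.04 (SE 0.30, 95% interval -0.61 to 0.70, edgeR adjusted p = 0.9999, n = 4), so changes from 0.653-fold to 1.62-fold lie within the interval. Mavs was counted with 207 UMIs in all controls together, which limits its precision. Tbk1 (chr10:121546455-121586787, minus) was at 125, 95.9, 94.95 and 126 CPM in control and at 127, 126, 115 and 104 CPM in CYR61 replicates 1 to 4. Its log2 fold change was 0.12 (SE 0.18, 95% interval -0.27 to 0.51, edgeR adjusted p = 0.9999, n = 4), which spans 0.831-fold to 1.43-fold. A missed threshold does not show that these levels were equal.

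The 95% interval of each sensor began above the upper limits of Mavs and Tbk1, the lowest being that of Eif2ak2 at 0.75. The difference between sensors and the other two genes was not tested. Summed over genes, the 5 sensors gave 0.924 to 1.77 UMIs per UMI of Mavs and Tbk1 in control libraries and 4.22 to 4.85 in CYR61 libraries. The sum of Mavs and Tbk1 was 121 to 161 CPM in control and 142 to 153 CPM in CYR61 libraries.

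**Figure D2:**
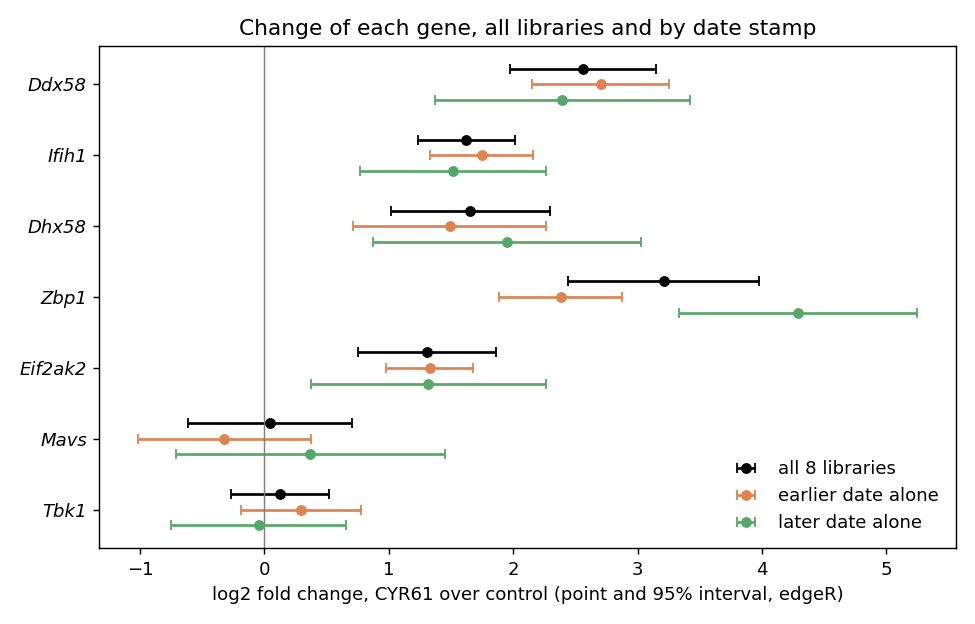
Log2 fold change of CYR61 over control (x axis) for each gene (y axis), as the edgeR estimate and its 95% interval over all 8 libraries (4 against 4), the earlier date alone and the later date alone (2 against 2 each). The sensors lie between 1.304 and 3.21 over all libraries, Mavs and Tbk1 lie at 0.04 and 0.12, and Zbp1 lies at 2.38 and 4.29 by date.

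Whether the sensors passed depended on the treatment of shared barcodes. In all 12848 kept cells, counted in every library that listed them, edgeR called 0 of 11148 genes (0.0%) and none of the 7. There 279 genes had an unadjusted p under 0.05, and all 5 sensors were among them. Estimates there were 1.078 for Ddx58, 0.84 for Ifih1, 1.0 for Dhx58, 1.55 for Zbp1 and 0.63 for Eif2ak2 on the log2 scale (edgeR adjusted p = 0.9999 each). Control replicate 2 moved from 106 to 17.8 CPM for Ddx58 and from 122 to 46.7 CPM for Ifih1. Its Eif2ak2 level moved from 189 to 94.2 CPM, and its Zbp1 level from 59.3 to 18.7 CPM. Control replicate 4 moved from 34.7 to 6.98 CPM for Zbp1 and from 37.6 to 23.9 CPM for Dhx58. Control replicate 1 changed little, with Ddx58 at 24.99 and 25.02 CPM.

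**Figure D3:**
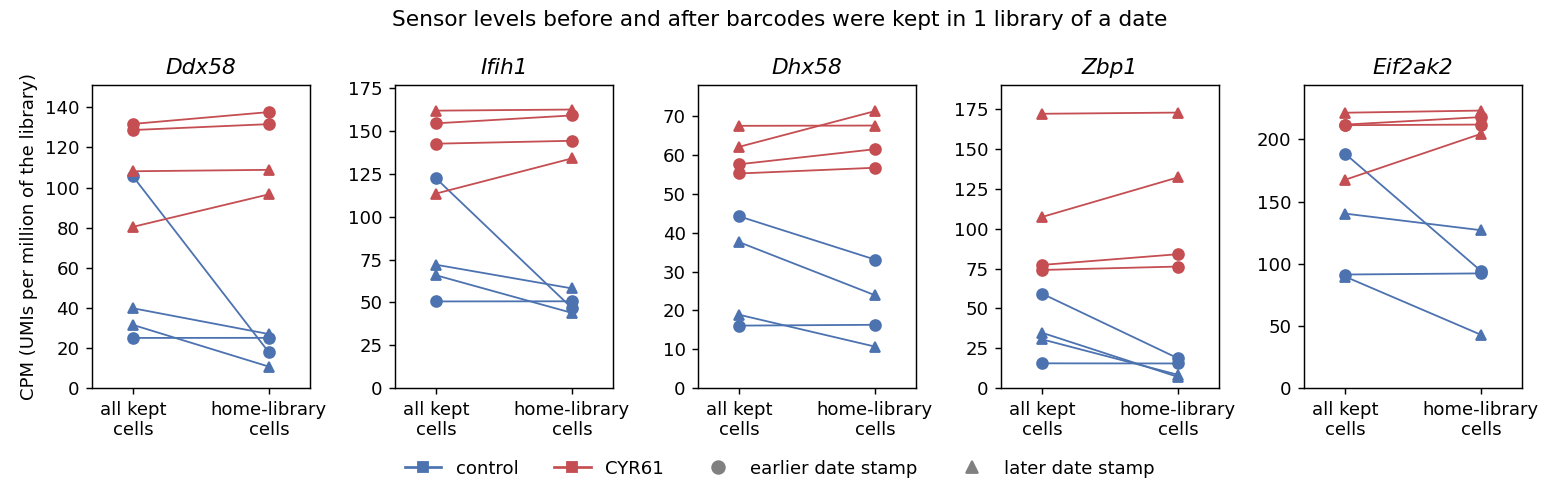
CPM of the 5 sensors (y axis, from 0) in all kept cells and in home-library cells (x axis), with 1 line for each library, blue for control and red for CYR61, circles for the earlier and triangles for the later date stamp. Control replicate 2 falls from 106 to 17.8 CPM for Ddx58. In all kept cells the groups overlap for Ddx58, Ifih1 and Eif2ak2 but not for Dhx58 and Zbp1. In home-library cells they are separate for all 5 sensors.

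Cells left out of a library were also read by the group of their home library. Sets of few such cells, as in control replicate 1 and CYR61 replicate 4, were not read. In control replicate 2, 1789 kept cells had most UMIs in a CYR61 library, and these held 134 CPM of Ddx58, 147 CPM of Ifih1, 72.6 CPM of Zbp1 and 219 CPM of Eif2ak2. In control replicates 3 and 4, the 172 and 90 such cells held 115 and 80.7 CPM of Ddx58 and 115 and 118 CPM of Zbp1. The Ddx58 level lay above every control library of home-library cells in all 3 cases. In the opposite direction, 64 cells of CYR61 replicate 1, 63 of replicate 2 and 124 of replicate 3 had most UMIs in a control library. They held 12.9, 14.5 and 24.8 CPM of Ddx58, out of 387365, 414816 and 322809 UMIs, so these levels rest on few UMIs. Tbk1 was at 101 to 124 CPM in all of these cells. Home was assigned by total UMIs alone, and these cells are parts of libraries, not replicates.

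The strictest set took barcodes listed in no other library of their date, 6405 cells. It held 260830 and 176939 UMIs in control replicates 2 and 4, against 1177733 and 1002930 in home-library cells. CYR61 replicates 1 and 2 held 962636 and 2779184 UMIs, against 7912412 and 13933610. Most UMIs of these libraries were thus left out of the set. Its control values thus rest on few UMIs. The log2 fold changes were 2.41 for Ddx58, 1.59 for Ifih1, 2.16 for Dhx58, 2.67 for Zbp1 and 1.12 for Eif2ak2. In that set Eif2ak2 did not pass (edgeR adjusted p = 0.0793), and the other 4 sensors did (adjusted p from 0.00121 to 0.0190). Mavs and Tbk1 were at 0.40 and 0.02 on the log2 scale, with an adjusted p of 0.990 and 0.999.

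More cells held a UMI of a sensor in CYR61 libraries. Shares were compared after each cell was thinned to 1000 UMIs, which kept 1017 control and 4201 CYR61 cells and left out 1040 and 2938 shallower ones. Before thinning, median UMIs per cell ranged from 921 to 1144 in control and from 789 to 1595 in CYR61 libraries. At that depth 11.8% to 18.1% of cells in control libraries and 39.2% to 47.5% in CYR61 libraries held a UMI of any of the 5 sensors. Cells with UMIs of at least 2 of them made up 0.905% to 1.34% in control and 7.73% to 13.7% in CYR61 libraries. Unthinned, any sensor was seen in 19.2% to 25.7% and 42.9% to 58.9% of cells. Shares of cells with a UMI of Mavs or Tbk1 overlapped, at 6.04% to 13.6% in control and 11.4% to 14.1% in CYR61 libraries. These shares come from the same counts as the CPM values and were not tested again. No cell class in these cultures is known to lack these genes, so no background share from free RNA was available.

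By gene, thinned shares were 0% to 3.17% in control and 9.28% to 10.9% in CYR61 libraries for Ddx58. They were 0.452% to 4.22% against 6.59% to 14.4% for Zbp1 and 3.17% to 9.40% against 15.5% to 18.7% for Eif2ak2. Ifih1 had 3.61% to 6.04% against 8.25% to 13.9%, and Dhx58 0% to 2.41% against 5.01% to 6.70%. In control replicate 3, Ddx58, Dhx58 and Mavs were each seen in 0 of 149 thinned cells, which allows up to 2.01% of cells with a UMI at that depth (3 counts, counting error alone). Unthinned, that library had a UMI of Ddx58 in 2.04%, of Dhx58 in 1.70% and of Mavs in 5.10% of its 294 cells, so the limit is one of detection at 1000 UMIs and not of expression. Unthinned means were 4.28% and 19.97% for Ddx58, 2.73% and 19.6% for Zbp1, 8.96% and 23.2% for Ifih1, 4.29% and 14.3% for Dhx58 and 12.9% and 27.2% for Eif2ak2. The other 2 genes had unthinned means of 6.59% and 7.73% for Mavs and 16.5% and 21.2% for Tbk1. The highest count in 1 unthinned cell was 28 UMIs for Eif2ak2, 25 for Ifih1 and 18 for Zbp1, all in CYR61 libraries.

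**Figure D4:**
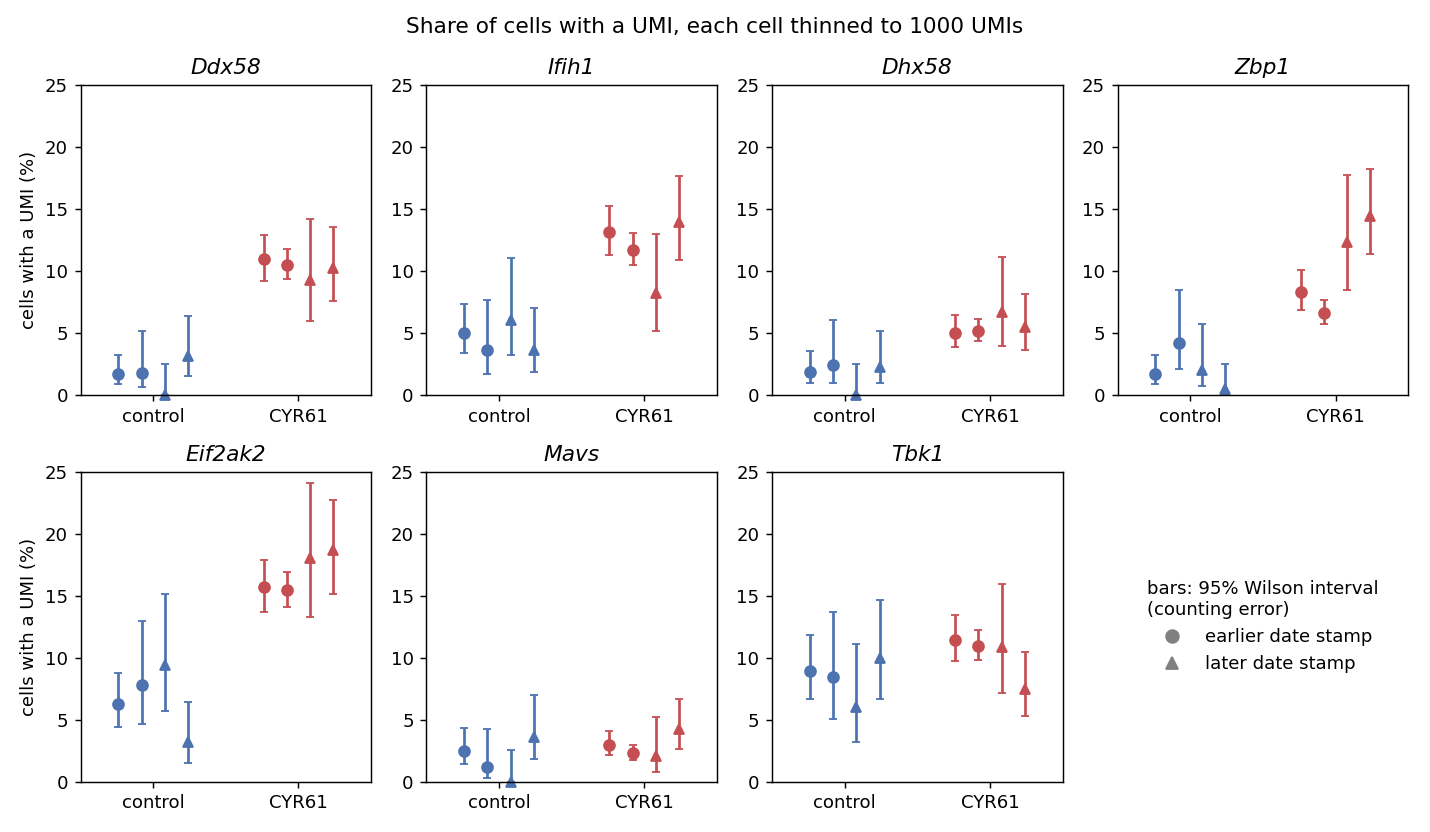
Share of cells with a UMI (y axis, percent) by group (x axis) after thinning each cell to 1000 UMIs. Points are single libraries, circles of the earlier and triangles of the later date stamp, and bars are 95% Wilson intervals that cover counting error alone. For each sensor the 4 CYR61 libraries lie above the 4 control libraries, with Ddx58 at 9.28% to 10.9% against 0% to 3.17%.

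Lists of related genes were read with and without the 7 genes already described. Among RIG-I-like receptors and their regulators, 4 of 12 tested genes rose, 0 fell and 8 did not pass, with a median log2 fold change of 0.62. Without Ddx58, Ifih1 and Dhx58, 1 of 9 rose and the median was 0.22. The gene that rose beside the 3 helicases was Ddx60, an interferon-inducible helicase reported to assist RIG-I signalling, at 22.4, 25.5, 13.1 and 34.9 CPM in control and 118, 97.0, 140.1 and 162 CPM in CYR61 replicates 1 to 4 (2.46 on the log2 scale, SE 0.28, edgeR adjusted p = 0.000414, n = 4). Trim25, a ubiquitin ligase that acts on RIG-I, was at 148 ± 48.7 and 284 ± 97.9 CPM and did not pass (edgeR adjusted p = 0.233). The groups overlapped for Trim25, since CYR61 replicates 1 and 2 lay at 199.8 and 199.3 CPM and control replicate 1 at 201 CPM. At the later date, CYR61 replicates 3 and 4 lay at 358 and 379 CPM and control replicates 3 and 4 at 101 and 114 CPM. The difference between dates was 1.59 on the log2 scale and did not pass (edgeR interaction, unadjusted p = 0.000216, adjusted p = 0.360).

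Among genes of MAVS, STING and TBK1 signalling, 1 of 17 rose and 16 did not pass, with a median log2 fold change of 0.08. Without Mavs and Tbk1, 1 of 15 rose and the median was again 0.08. The gene that rose was Irf7, the interferon regulatory factor that amplifies interferon production. Irf7 was at 21.0, 28.9, 8.31 and 14.96 CPM in control and at 199.7, 166, 695 and 762 CPM in CYR61 replicates 1 to 4 (4.63 on the log2 scale, SE 0.55, edgeR adjusted p = 0.000533, n = 4). As for Zbp1, the later CYR61 libraries were the higher ones, and the difference between dates was 2.91 on the log2 scale (edgeR interaction adjusted p = 0.207, DESeq2 adjusted p = 1.7e-05). Irf3, the direct substrate of TBK1, was at 40.2 ± 18.1 and 39.7 ± 14.0 CPM, and Ikbke, the kinase related to TBK1, at 91.9 ± 36.9 and 89.9 ± 20.7 CPM (SD, n = 4). Neither passed (edgeR adjusted p = 0.9999 each).

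Among genes of cytosolic DNA sensing, 2 of 12 rose, Zbp1 and Trex1, and 10 did not pass, with a median log2 fold change of 0.17. Without Zbp1, 1 of 11 rose and the median was 0.099. Trex1 encodes an exonuclease that degrades cytosolic DNA. Trex1 was at 13.1, 9.34, 21.4 and 5.98 CPM in control and at 42.5, 39.6, 45.3 and 75.7 CPM in CYR61 replicates 1 to 4 (2.07 on the log2 scale, SE 0.37, edgeR adjusted p = 0.0144, n = 4). Its call was lost without control replicate 1, control replicate 2 or CYR61 replicate 4 (edgeR adjusted p = 0.0768, 0.0622 and 0.0781, and from 6.9e-07 to 0.9999 over all alternatives). The DNA sensor Cgas was at 26.4 ± 17.4 and 39.6 ± 4.46 CPM, and Sting1, its downstream adaptor, at 7.36 ± 5.62 and 8.82 ± 4.30 CPM. Aim2, an inflammasome sensor, was at 88.1 ± 7.84 and 102 ± 15.4 CPM, and none of these 3 passed (edgeR adjusted p from 0.941 to 0.9999).

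Zbp1 was the sole gene called among 7 of the Z-nucleic acid and necroptosis pathway, with a list median of 0.59 and of 0.45 for the other 6 genes. Its partner kinase Ripk3 averaged 23.8 ± 16.6 CPM without and 12.1 ± 3.22 CPM with CYR61 (log2 fold change -0.94, edgeR adjusted p = 0.847). The necroptosis effector Mlkl had values of 19.4 ± 9.30 and 45.0 ± 5.87 CPM (log2 fold change 1.21, edgeR adjusted p = 0.134), and Adar, an RNA-editing enzyme that limits sensing of cellular RNA, 39.4 ± 12.4 and 82.2 ± 18.1 CPM (log2 fold change 1.082, edgeR adjusted p = 0.117). Both had groups without overlap but missed the threshold of edgeR. With DESeq2, without a count filter or with the Xist split as a block, 3 genes of this list were called.

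Eif2ak2 was likewise the sole gene called among 12 of the eIF2 alpha stress response, with a list median of 0.06 and of 0.012 for the other 11 genes, and 2 were called under those same 3 alternatives. Its related kinases Eif2ak1, Eif2ak3 and Eif2ak4, which answer to haem, unfolded protein and amino acid shortage, had log2 fold changes of 0.11, -0.58 and 0.23. The response genes Atf4 and Ddit3 had -0.09 and 0.15, and none passed. Of 19 other DExD/H-box RNA helicases, edgeR called 0, at log2 fold changes from -0.37 to 0.55, and DESeq2 called 0. One of them, Ddx24, had an unadjusted edgeR p of 0.0398. Interferon ligands were near the limit of counting. Ifnb1 had 1 UMI in control and 2 in CYR61 libraries, Ifna6 had 0 and 1, and Ifnk had 1 and 0. The other ligands searched for were, by name, not among the 32249 genes listed in the libraries.

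**Figure D5:**
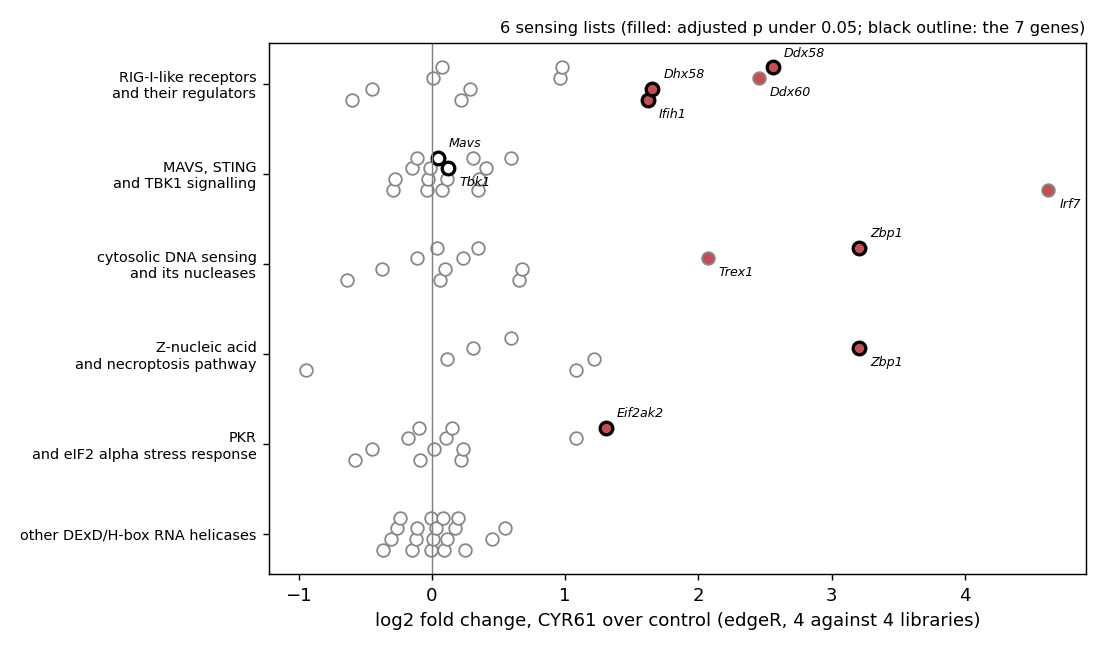
Log2 fold change of CYR61 over control (x axis) for the tested genes of 6 lists (y axis, with points staggered within a list). Filled points passed edgeR's test over all genes, open points did not, and black outlines mark the 7 genes described here. The called genes lie at 1.304 or higher, and the other RNA helicases lie between -0.37 and 0.55.

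The genes most like each member were ranked by Pearson's r of log2 CPM over the 8 libraries among 6616 genes with a mean of at least 20 CPM. These r values describe libraries that fall into the study's groups, and they carry no test. For Ddx58 the closest were Usp25 (r = 0.990), Fcgr4 (0.973) and Znfx1 (0.968), and for Ifih1 they were Aif1 (0.989), Lgals3bp (0.987) and Sp100 (0.981). For Dhx58 they were Rnf213 (0.982), Dck (0.971) and Sema4d (0.963), and for Zbp1 Marchf1 (0.992) and Ifit3 (0.989). For Eif2ak2 they were Parp12 (0.972), Gvin-ps7 (0.970) and Arid4a (0.969). Of the genes named here for the sensors, edgeR did not call Usp25, Sema4d, Marchf1 and Arid4a, and called the others as higher with CYR61. For Tbk1 the closest gene was Sike1 (r = 0.956), which encodes a protein known to bind TBK1, then Chd6 (0.932) and Dync1h1 (0.915). For Mavs the closest were Smim10l1 (0.956), Tnfrsf1b (0.954) and Rin3 (0.923). None of the 6 genes closest to Tbk1 or Mavs was called.

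The cultures carried the defining macrophage markers, with all 7 detected in both groups and summed levels of 9390 to 13838 CPM in control and 11554 to 15783 CPM in CYR61 libraries. Marker lists of 3 other cell types did not overlap between the groups. B cell markers (4 of 5 listed) summed to 8.97 to 36.8 CPM in control and 2.61 to 6.57 CPM in CYR61 libraries, most of it Ighm in controls, with Cd79a and Ms4a1 at 0 in controls. Dendritic cell markers (4 of 5) summed to 154 to 235 and 66.1 to 131 CPM, nearly all of it Itgax, which macrophages also express, with Flt3 at 0 in controls. Plasmacytoid dendritic cell markers (4 of 4) summed to 163 to 284 and 462 to 891 CPM, mostly Bst2, itself interferon-inducible, and Tcf4, with Siglech at 0 in controls. The part of these cells in the sensors' values was not tested directly. Within cells that held a UMI of Csf1r, Adgre1 or Cd68 (85.3% of home-library cells), the log2 fold changes were 2.52, 1.62, 1.61, 3.29 and 1.3 for Ddx58, Ifih1, Dhx58, Zbp1 and Eif2ak2. Such cells held most UMIs of each library, as with 781143 of 842528 in control replicate 3 and 7744016 of 7912412 in CYR61 replicate 1. Their values could thus differ little from those of all home-library cells, and they cannot decide the part of other cell types. Neutrophil markers overlapped between the groups and were highest in CYR61 replicate 3 (2638 CPM), and without that library the same log2 fold changes were 2.70, 1.73, 1.67, 3.19 and 1.39.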

How the data were processed

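The 8 HIVE single-cell libraries, 4 control and 4 CYR61, were grouped by their labels. The deposited tables hold whole-number UMI counts per gene and barcode, and mm10 is the build per the submitters' processing notes. For the aligner, counter, strand setting and cell calling, the tool is not given in the sources used here. Each table listed 5000 barcodes, with total counts of 1379637 to 16318946. Cells had at least 300 genes and at most 20% mitochondrial UMIs, and each barcode was kept only in the table of its date stamp (read from the file name) where it had most UMIs. No ties occurred and no doublet caller was run.

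Counts were summed per library and tested in R 4.3.3 with edgeR 4.0.16 (TMM factors, filterByExpr, quasi-likelihood test, group as sole term, Benjamini-Hochberg adjustment over all genes), with DESeq2 1.42.0 beside it. A second fit tested the interaction with date. SE is the log2 fold change over the root of the F statistic. CPM used the library's total. Thinning used Python 3.11.15, and Wilson intervals (95%) scipy 1.17.1. The scripts were tested on simulated data. The smaller the number of UMIs behind a value, the less precise it is, and floors, like intervals, cover only counting error.

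The 7 genes and the pathway lists were chosen with earlier results of these data known. The text names the 7 genes, up to 4 called genes of each list and direction, the 3 genes most like each of the 7 (gene models left out, and 1 gene not reported here) and, with counts of 5 or fewer, other list genes. Named list genes that were not called (such as Trim25, Irf3, Ikbke, Cgas, Sting1, Aim2, Ripk3, Mlkl, Adar and the eIF2 alpha genes) were chosen for their role, with their values known. Gene positions are from GENCODE vM21 and promoter windows from RefSeq on GRCm38.p6. Alternatives covered shared barcodes, cell filters, DESeq2, scaling, count filters, date, Xist and replicate blocks, single dates and leaving out each library.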

Additional observations from a re-analysis of the deposited data

Results flagged for a closer look

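Trex1, which encodes a cytosolic DNA exonuclease, stood out in CYR61 replicate 4, at 75.7 CPM against 39.6 to 45.3 CPM in the other CYR61 libraries. Its gap to the next library was 0.844 of the group's range, above Dixon's 95% critical value for 4 libraries. Across the 7 genes and the called list genes Ddx60, Irf7 and Trex1, 20 groups of 4 libraries were checked in this way and 1 was marked, where chance marks about 1 in 20. The log2 fold change of Trex1 without that library was 1.804 (edgeR adjusted p = 0.0781). The interaction of CYR61 with date stamp was called by edgeR for none of the 7 genes.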

How the results depend on the processing

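All 5 sensors kept a positive log2 fold change in each of the 26 alternatives. Ddx58 and Zbp1 passed in 25 of 26, Ifih1 in 24, Dhx58 in 21 and Eif2ak2 in 19, and Mavs and Tbk1 in 0. In all kept cells edgeR called 0 genes and 0 of the 7. Over all genes DESeq2 called 184, a fit without a count filter 239 and one blocked on the Xist libraries 231, and leaving out single libraries gave 74 (without CYR61 replicate 4) to 127. Of the 7 genes, 2 passed at the later date alone and 3 to 5 when single libraries were left out. The replicate numbers did not pair the libraries (same-numbered deviations correlated at -0.198, 0.324, -0.0874 and 0.314). With the replicate block edgeR called 112 genes and 5 of the 7, and 0 in the interaction test, where DESeq2 called 41, no count filter 180 and leaving out single libraries 0 to 278 (without control replicate 4).

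The log2 fold change of Mavs turned negative with at least 200 genes (-0.033), every listed barcode (-0.016), a date term (-0.0025), the replicate block (-0.0064) and the earlier date alone (-0.32), and ranged from -0.26 to 0.21 without single libraries. Tbk1 turned to -0.046 at the later date alone. The difference between dates changed sign for Ddx58 (0.43) and Ifih1 (0.23) in all kept cells and for Eif2ak2 without a count filter (-0.084). Without single libraries it ranged from -0.78 to 0.57 for Ddx58, -0.38 to 0.0094 for Ifih1 and -0.57 to 0.99 for Eif2ak2. The log2 ratio of mean cell shares moved to 1.86 for Ifih1 at 500 UMIs and to 3.68 for Zbp1 at 2000 UMIs. The cause of these changes was not tested. Low control counts, from 89 to 207 UMIs in all, limit Zbp1, Dhx58, Ddx58 and Mavs.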
